A study of Mus musculus with 2 samples.

Results

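The 30 genes described here are the microglial identity genes, a set by which microglia are told apart from other macrophages of the brain and its borders. They were found by gene symbol in the count matrices of both libraries. All 30 were present, out of 26033 genes listed in each matrix. The set was drawn up from genes known to mark microglia, so a higher level in microglia than in other macrophages is part of how it was chosen.

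The study profiled single cells of the whole mouse brain on the 10x Chromium 3′ platform, in which a unique molecular identifier (UMI) counts each captured molecule once. By its title it concerns perivascular macrophages that need interleukin-34, a ligand of the receptor CSF1R. There was 1 library from Csf1rfl/fl mice, the control, and 1 from Mrc1Cre:Csf1rfl/fl mice, the mutant. Both pool cells sorted by surface antigens as microglia, border-associated macrophages (BAMs), endothelial cells, astrocytes, mural cells and fibroblasts. Both genotypes carry the floxed Csf1r gene on both alleles, and only the mutant carries Cre, expressed from the locus of Mrc1, the mannose receptor gene by which BAMs are known. The sources used here give neither age nor sex, nor how many animals went into a library. With 1 library per genotype there was no replicate check. Every interval below is an exact 95% interval for counting error only, and no p-value is given.

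Microglia are the resident macrophages of the brain tissue, and BAMs live in its perivascular spaces, meninges and choroid plexus. Both need signals through CSF1R. Microglial identity is held by transcription factors, among them the zinc finger protein SALL1 and the macrophage factors PU.1, MEF2C and IRF8, together with signals from the tissue such as TGF-beta. The genes of the set include such factors, surface proteins that sense the tissue, and secreted proteins.

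The control library held 8739 barcodes and the mutant 8735, with medians of 7998 and 8236 UMIs per barcode. Only 17 barcode sequences occurred in both. Clusters were built without the 30 genes. Microglia-like, BAM-like and monocyte- or dendritic-like cells were then kept by a gate on other markers. For microglia they included P2ry12, P2ry13, Gpr34, Siglech and Fcrls. These 5 together made up 0.983% of UMIs in the microglia-like cells of the control and 0.903% in those of the mutant. The gate kept 2638 control and 2742 mutant microglia-like cells, 310 and 124 BAM-like cells, and 22 and 44 monocyte- or dendritic-like cells. In microglia-like cells the 8 BAM markers summed to 47.5 and 16.1 CPM, UMIs scaled to 1000000 per class and library, against 14384 and 12581 CPM in BAM-like cells. The gate uses these 8 markers, so the direction of this gap is fixed by it. Csf1r stood at 2363 and 1877 CPM in microglia-like cells and at 1390 and 1163 CPM in BAM-like cells of control and mutant. A 3′ tag can lie outside the deleted segment, and the deletion itself is not checked by these levels.

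The promoters of 5 genes are printed because these genes separated microglia-like from BAM-like cells most strongly in both libraries among the 21 of 30 with an entry in the RefSeq promoter table. Each line holds the 200 bases before the RefSeq start in build GRCm38.p6, 5′ to 3′ on the strand of the gene. Sparc lies on the minus strand at chr11:55420081-55420280, Adgrg1 on the plus strand at chr8:94976909-94977108, Sall1 on the minus strand at chr8:89044163-89044362, Lrrc3 on the minus strand at chr10:77902537-77902736 and Golm1 on the minus strand at chr13:59675785-59675984. Capitals mark the core GAGGAA of the sites that PU.1 is known to bind, searched on both strands, where its other strand reads TTCCTC.
Sparc: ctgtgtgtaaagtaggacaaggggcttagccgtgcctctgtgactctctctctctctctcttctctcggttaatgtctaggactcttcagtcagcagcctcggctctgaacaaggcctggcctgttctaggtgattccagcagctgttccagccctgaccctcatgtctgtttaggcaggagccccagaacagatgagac
Adgrg1: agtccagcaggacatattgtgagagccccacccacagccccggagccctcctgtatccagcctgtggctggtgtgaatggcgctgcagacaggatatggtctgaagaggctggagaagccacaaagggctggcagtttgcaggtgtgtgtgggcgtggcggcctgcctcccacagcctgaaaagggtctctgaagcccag
Sall1: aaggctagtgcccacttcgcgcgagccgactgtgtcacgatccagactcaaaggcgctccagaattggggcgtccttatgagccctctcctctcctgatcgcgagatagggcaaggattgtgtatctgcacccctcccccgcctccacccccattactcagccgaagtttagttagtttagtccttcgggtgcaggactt
Lrrc3: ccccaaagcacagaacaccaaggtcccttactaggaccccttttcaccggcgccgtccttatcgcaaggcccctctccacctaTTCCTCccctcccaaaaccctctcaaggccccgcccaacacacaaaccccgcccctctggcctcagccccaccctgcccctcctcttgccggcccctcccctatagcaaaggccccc
Golm1: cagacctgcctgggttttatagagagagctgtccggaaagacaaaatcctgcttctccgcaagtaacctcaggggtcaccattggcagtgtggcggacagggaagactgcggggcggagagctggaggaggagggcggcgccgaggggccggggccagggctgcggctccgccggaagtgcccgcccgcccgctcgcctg
Of these 5 stretches only that of Lrrc3 held the core. Over the whole set it was found before a start of 4 of the 21 genes with an entry (Aif1, Lrrc3, Mef2c and Ptgs1), or 19.0%, against 21.3% of all 27025 genes of the table. The longer string GAGGAAGT, which contains that core, was found for 1 of the 21 (Ptgs1) and for 2.39% of all genes. A match of letters describes the window and is not a binding site.

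Together the 30 genes made up 7.63% of all UMIs of control and 7.49% of mutant microglia-like cells. Cst3, the gene for cystatin C, a secreted inhibitor of cysteine proteases, gave most of this. Without it the other 29 genes summed to 23461 and 22396 CPM. In BAM-like cells those 29 summed to 6236 and 6177 CPM, and in monocyte- or dendritic-like cells to 3492 and 2261 CPM.

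Read cell by cell, microglia-like cells showed more of the 30 genes than most cells of other classes. To hold depth equal, each cell was thinned to 3000 UMIs, which left out 50 control and 61 mutant microglia-like, 43 and 16 BAM-like, and 3 and 1 monocyte- or dendritic-like cells as too shallow. A microglia-like cell then showed a median of 22 of the 30 genes in the control and 21 in the mutant, with 5th and 95th percentiles of 18 and 25 in both. A BAM-like cell showed a median of 10 and 9, and a monocyte- or dendritic-like cell 6 and 5. Cells of the choroid plexus epithelium, which do not carry microglial identity, showed 4 and 3, and endothelial-like cells 7 and 6. Thinning left out 47 of 127 control and 82 of 184 mutant endothelial-like cells, so their values describe the deeper cells of that class. The classes overlapped at their edges. The range between the 5th and 95th percentiles was 6 to 13 in BAM-like and 5 to 10.1 in monocyte- or dendritic-like cells of the control, and in mutant endothelial-like cells it reached from 4 to 22. Thinned to 2000 UMIs the microglia-like median was 19 in both libraries, and at 5000 UMIs it was 25 and 24.

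**Figure D1:**
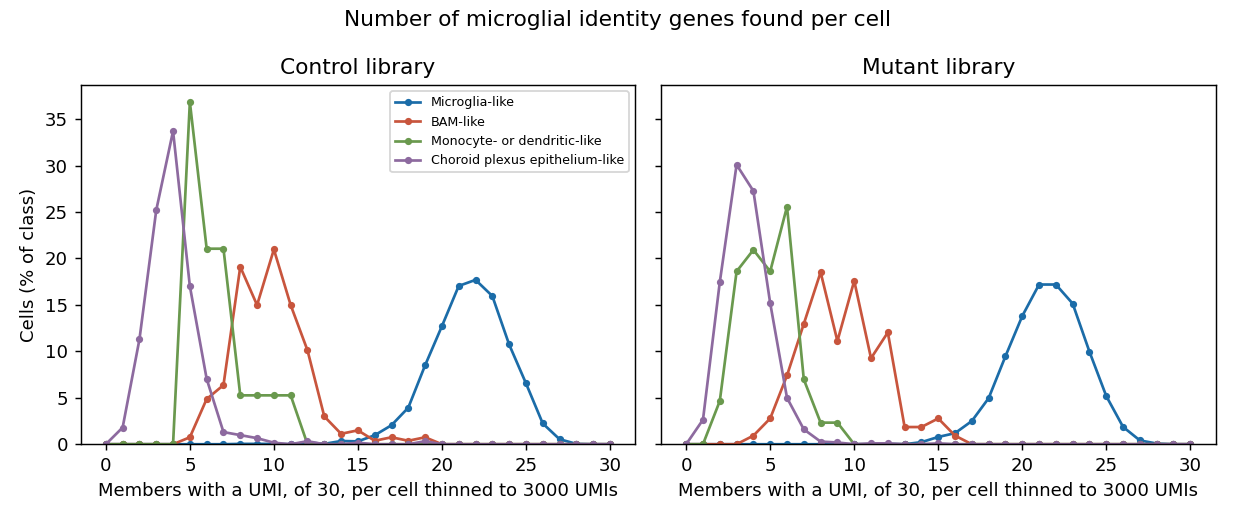
Number of the 30 identity genes with at least 1 UMI (x axis) against the percent of cells of a class (y axis), each cell thinned to 3000 UMIs, for the control library on the left and the mutant on the right. Microglia-like cells peak near their medians of 22 and 21, apart from BAM-like (10 and 9), monocyte- or dendritic-like cells (6 and 5) and the choroid plexus epithelium (4 and 3).

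Microglia-like and BAM-like cells were compared within each library. A gene was called when its CPM differed at least 1.5-fold with an interval that excluded a ratio of 1, among genes with at least 50 UMIs in both classes together. In both libraries alike, 25 of the 30 genes were called higher in microglia-like cells and none lower. Of all 11113 genes measured in both, 11.9% were called higher and 10.4% lower. The set had a median log2 ratio of 2.54 (control) and 3.37 (mutant), beside 0.11 and 0.06 over all genes measured. The gene choice favours this direction, as stated above.

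All 11 surface receptors and transporters were higher in microglia-like cells. Tmem119 (ENSMUSG00000054675, chromosome 5, 113793729 to 113800516, minus strand, GRCm38), a membrane protein widely used as a microglial marker, stood at 1271 and 1209 CPM in control and mutant microglia-like cells and at 66.2 and 66.1 CPM in BAM-like cells. That is 19.2-fold (16.8 to 22.1) and 18.3-fold (14.5 to 23.3) higher. Over 18 alternative settings the ratio ran from 5.86 to 27.5 in the control and from 8.34 to 29.2 in the mutant. At 3000 UMIs 95.2% and 95.4% of microglia-like cells held a Tmem119 UMI, against 15.4% and 13.9% of BAM-like cells and 5.89% and 5.66% of choroid plexus epithelium-like cells. Before thinning these shares in the same order were 99.1% and 98.7%, 30.6% in both libraries, and 22.2% and 19.8%. The tag counts of Tmem119 thus placed BAM-like cells nearer to the epithelium than to microglia.

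Selplg, which encodes the P-selectin ligand PSGL-1, stood at 2210 and 2060 CPM in microglia-like and at 123 and 120 CPM in BAM-like cells. Adgrg1, the adhesion receptor GPR56, stood at 347 and 330 CPM against 19.3 and 10.9 CPM, and Ecscr, a surface protein first described on endothelium, at 351 and 341 CPM against 12.6 and 9.96 CPM. These 3 genes differed by between 17.1- and 34.2-fold. Smaller gaps were found for Cx3cr1, the fractalkine receptor, at 3.85- and 3.999-fold, and for Slco2b1, a transporter of organic anions, at 2.03- and 2.27-fold. Upk1b, a uroplakin known from bladder epithelium, had only 8 and 3 UMIs over all BAM-like cells, and its 31.5-fold (16.0 to 73.1) and 18.3-fold (6.26 to 88.9) ratios are correspondingly loose. Rtn4rl1, of the Nogo receptor family, was 20.2- and 10.3-fold higher, and Lrrc3, a leucine-rich repeat membrane protein, 27.5- and 15.4-fold. Gpr84, a receptor for medium-chain fatty acids, was 8.58- and 14.7-fold higher. The tetraspanin gene Cd81 was 5.50- and 3.25-fold higher.

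Of the 5 genes for proteins that are secreted or released from the cell, 4 were called. Sparc, a collagen-binding matricellular protein, stood at 2728 and 2673 CPM in microglia-like cells against 112 and 72.5 CPM in BAM-like cells, which is 24.3-fold (21.9 to 27.0) and 36.9-fold (29.6 to 46.5). Olfml3, a secreted olfactomedin-like protein, stood at 1548 and 1661 CPM against 116 and 128 CPM. Cst3 stood at 52858 and 52489 CPM against 9340 and 8243 CPM, a ratio of 5.66 and 6.37. Tgfa, a ligand of the EGF receptor, was 4.53- and 10.4-fold higher. Rnase4, a secreted ribonuclease, was not called, at 1.42- and 1.28-fold. It shares its locus with Ang, so tags may be split between these genes. Crybb1, which encodes a crystallin of the lens, a protein kept inside cells, was called as well, at 5.96- and 13.3-fold.

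Among the 6 transcription factors the set divided. The SALL genes stood far apart between the classes, with Sall1 (ENSMUSG00000031665, chromosome 8, 89027235 to 89044162, minus strand, GRCm38) at 456 and 419 CPM in microglia-like and 25.4 and 15.4 CPM in BAM-like cells, a ratio of 17.9 (14.5 to 22.5) and 27.2 (17.0 to 46.7). Its paralog Sall3 stood at 161 and 204 CPM against 6.74 and 7.25 CPM. Bhlhe41, a basic helix-loop-helix repressor, was 2.66- and 3.99-fold higher, and Irf8, an interferon regulatory factor needed by macrophages, 1.79- and 2.02-fold. Mef2c stood at 2006 and 1857 CPM against 1539 and 1658 CPM and Spi1, which encodes PU.1, at 427 and 391 CPM against 355 and 388 CPM. Neither passed the 1.5-fold rule, with ratios of 1.30 and 1.12 for Mef2c and 1.202 and 1.01 for Spi1. Both factors are known from macrophages in general, and their levels differed by less than 1.5-fold between these classes.

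Of the 3 enzymes, Ptgs1, the cyclooxygenase that makes prostaglandin precursors, was 4.07- and 4.41-fold higher and the lysosomal sulfatase Arsb 2.83- and 2.67-fold. Ltc4s, leukotriene C4 synthase, stood at 622 and 660 CPM in microglia-like and 683 and 532 CPM in BAM-like cells and was not called. Of the 4 genes for cytoskeleton and membrane traffic, Nav3, a microtubule-binding protein, was 27.3-fold (23.9 to 31.3) and 53.4-fold (37.6 to 78.7) higher. The mutant ratio was the largest point value of the 30 genes, on 31 UMIs in BAM-like cells. Its interval overlapped those of other genes, among them Sparc (29.6 to 46.5) and Ecscr (19.1 to 68.5). In the control Upk1b, Ecscr and Lrrc3 had point values above that of Nav3, with intervals that overlap it. Nav3 is the longest of the 30 genes, spanning 775 kb on chromosome 10. Golm1, a Golgi membrane protein, was 13.5- and 25.6-fold higher and Bin1, which bends membranes, 2.89- and 2.50-fold. Aif1, the actin-binding protein IBA1, fell just short at 1.47- and 1.48-fold. It crossed the threshold in 6 alternative settings in the control and 9 in the mutant.

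**Figure D2:**
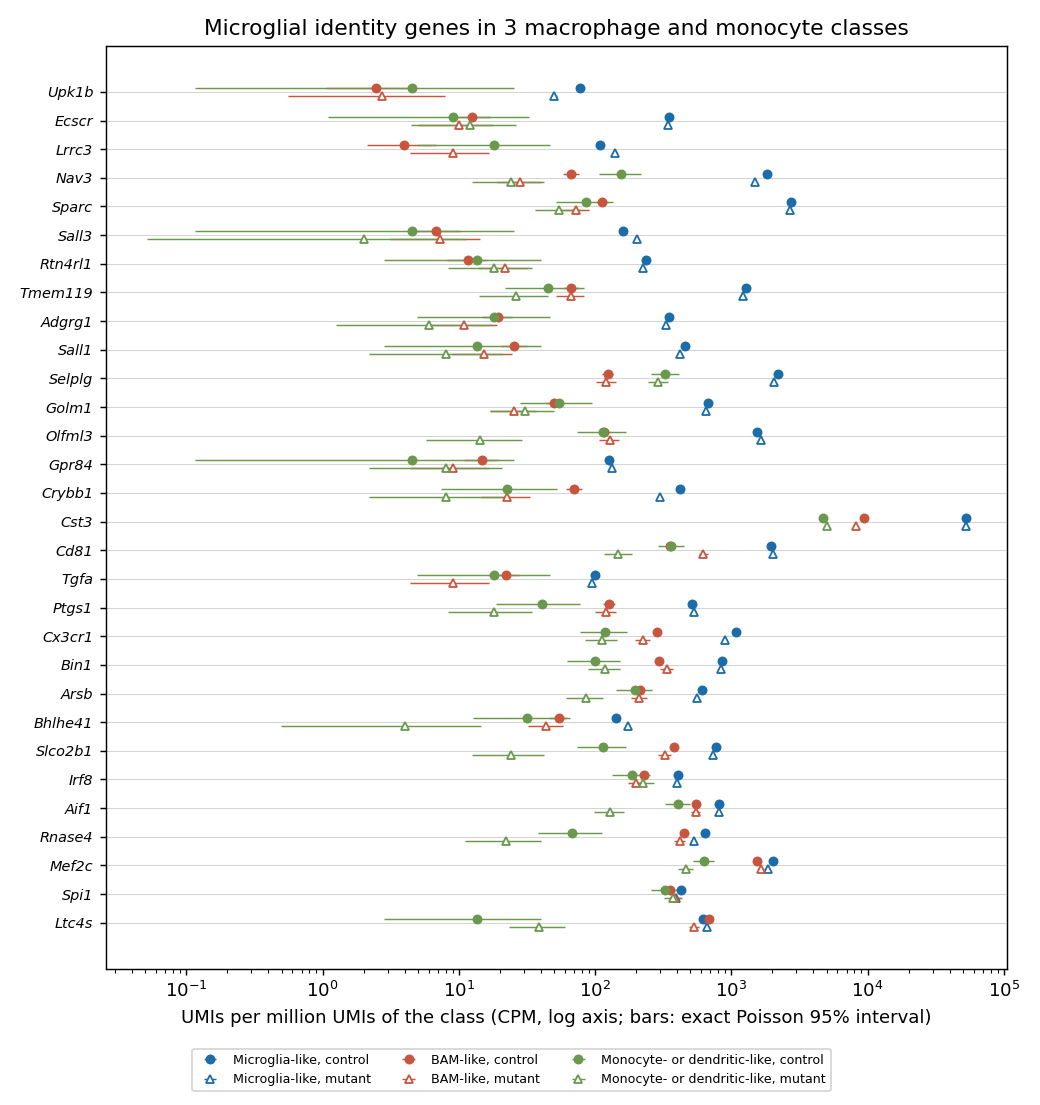
Level of each of the 30 genes in CPM of the class (x axis, log scale) in microglia-like, BAM-like and monocyte- or dendritic-like cells of the control (filled circles) and mutant library (open triangles), with exact Poisson 95% intervals. Genes are ordered by their microglia to BAM ratio in the control, from Upk1b at 31.5 to Ltc4s at 0.911. Upk1b, Lrrc3 and Tgfa had no UMI in the mutant monocyte- or dendritic-like cells and have no point there.

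A second list of 29 genes that microglia are known to express, none of them in the set, followed the same pattern with smaller ratios. Of these, 22 were called higher in microglia-like than in BAM-like cells in both libraries and none lower, with a median log2 ratio of 1.32 in the control and 1.28 in the mutant. It includes the 5 gate markers named above, whose direction the gate fixes. Of 14 measured partner transcription factors, 4 were called higher and 3 lower in both libraries.

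Against monocyte- or dendritic-like cells, 29 of the 30 genes were called higher in microglia-like cells in both libraries and none lower, where 12.8% of 10975 measured genes were called higher and 8.12% lower. Spi1 was the exception, at 1.31- and 1.04-fold. The class is small, with 22 and 44 cells, so single ratios are imprecise. Sall1 rested on 3 and 4 UMIs there (ratios of 33.5, 11.5 to 163, and 51.7, 20.2 to 190). In the mutant Upk1b, Lrrc3 and Tgfa had no UMI in that class, so they were at least 8.19-, 23.0- and 15.6-fold higher in microglia-like cells, against a floor of 3 counts over the class. Markers of choroid plexus epithelium summed to 2671 and 20968 CPM in these cells, and their part in the result was not tested.

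Mutant and control microglia-like cells differed little in the identity genes. Of the 30 genes, none was called higher in the mutant and 1 lower, where 1.52% of 12220 measured genes were called higher and 4.35% lower. The median log2 ratio of the set was -0.06, beside -0.03 over all genes measured. Median depth was 8923.5 and 8818.5 UMIs per cell, and the median share of UMIs in genes longer than 100 kb was 19.6% and 19.9%.

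The 1 gene called was Upk1b (ENSMUSG00000049436, chromosome 16, 38773184 to 38800328, minus strand, GRCm38). Its level was 77.3 CPM in control and 49.8 CPM in mutant cells, a ratio of 0.644 (0.602 to 0.689). At 3000 UMIs 18.1% (16.6 to 19.6) of control and 11.7% (10.5 to 12.95) of mutant microglia-like cells held an Upk1b UMI, against 0.327% and 0.0943% of choroid plexus epithelium-like cells. Before thinning the microglial shares were 37.8% and 25.9%. Over 18 alternative settings the ratio stayed between 0.625 and 0.659, and it missed the call only under a 2-fold rule.

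The other low ratios were those of Crybb1, from 420 to 300 CPM (0.715, 0.695 to 0.736), Cx3cr1, from 1089 to 895 CPM (0.822), Nav3, from 1812 to 1500 CPM (0.828), and Rnase4, from 643 to 535 CPM (0.832). None of these 4 passed the 1.5-fold rule. At 3000 UMIs a Crybb1 UMI was found in 64.4% (62.5 to 66.2) of control and 53.5% (51.6 to 55.4) of mutant microglia-like cells, and before thinning 88.6% and 80.4%. Counting error alone does not span these gaps, but the spread between animals is unknown.

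The highest ratios were those of Lrrc3, from 110 to 140 CPM (1.28, 1.22 to 1.34), Sall3, from 161 to 204 CPM (1.26, 1.22 to 1.31), Bhlhe41, from 143 to 173 CPM (1.21), Olfml3, from 1548 to 1661 CPM (1.07), and Ltc4s, from 622 to 660 CPM (1.06). None passed the rule. The remaining 20 genes lay between 0.914 (Spi1) and 1.05 (Gpr84). Among them were Tmem119 at 0.951, Sall1 at 0.919, Mef2c at 0.926, Irf8 at 0.981, Selplg at 0.932, Sparc at 0.980, Cst3 at 0.993, Aif1 at 0.999 and Bin1 at 0.986. Tmem119, the microglial marker, and Sall1, the identity factor, thus stood below their control level by less than the 1.5-fold rule asks.

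**Figure D3:**
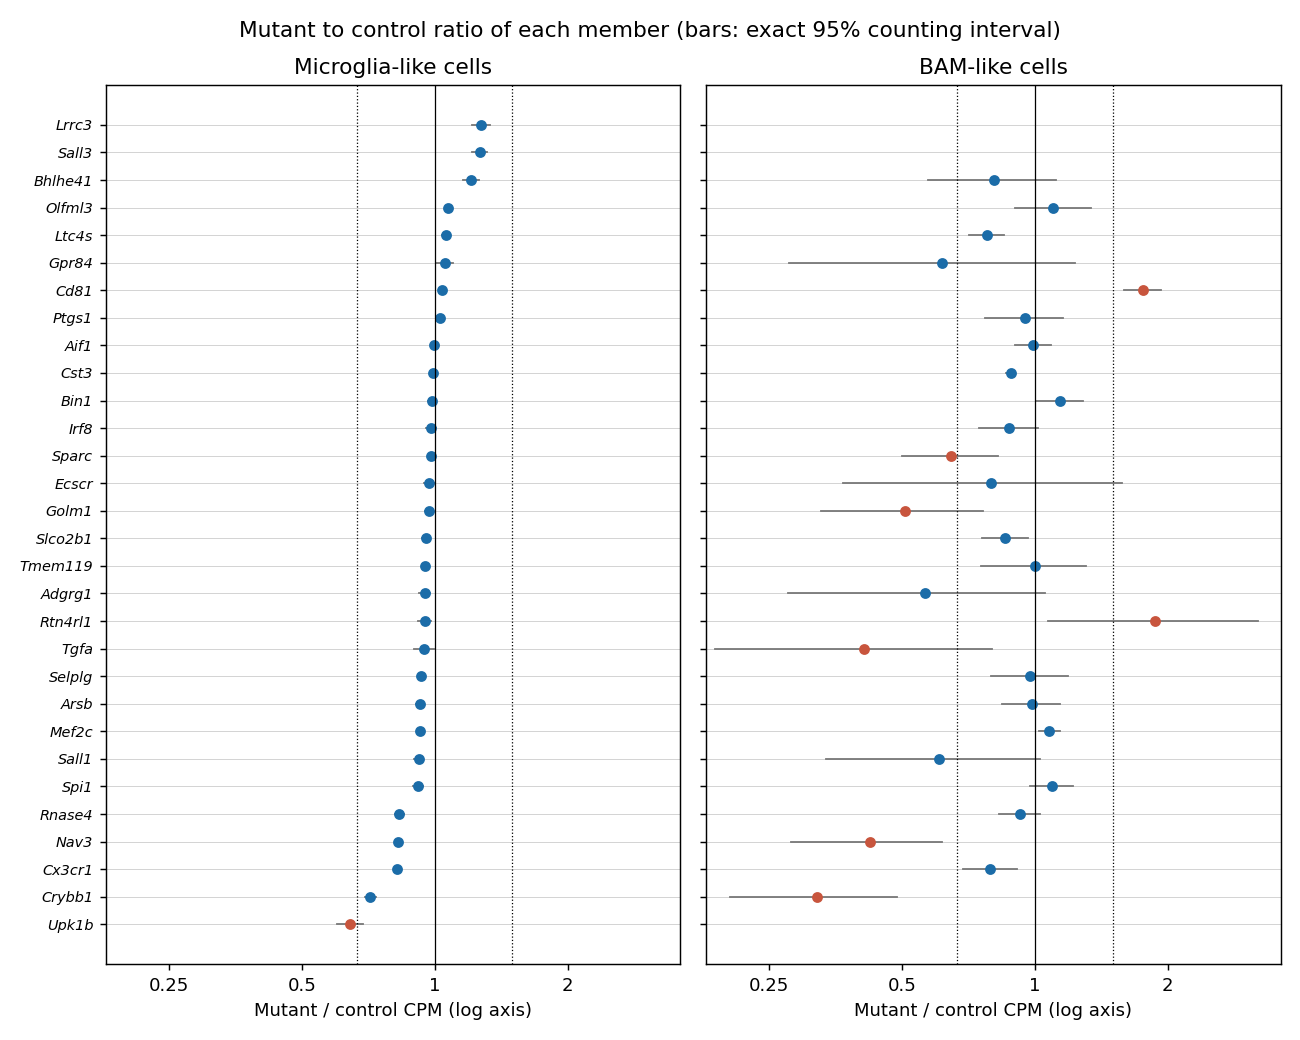
Mutant to control ratio of CPM (x axis, log scale) for each identity gene in microglia-like cells (left) and BAM-like cells (right), with exact 95% counting intervals and dotted lines at 1.5-fold in either direction. Called genes are red: Upk1b at 0.644 on the left, and on the right Cd81 and Rtn4rl1 above 1 and Sparc, Golm1, Nav3, Tgfa and Crybb1 below 1. Upk1b, Lrrc3 and Sall3 had fewer than 50 UMIs in BAM-like cells and are not drawn on the right.

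Other gene groups give the setting for these values. Of the second list of 29 microglial genes none was called in either direction, with Csf1r lowest at 0.794 and Itgam, an integrin chain, highest at 1.17. Of 15 partner transcription factors only Bhlhe40 was called, from 1.53 to 0.606 CPM. Of 11 measured genes of activated microglia, 2 were called higher and 4 lower. Clec7a, a receptor for fungal glucans, went from 25.7 to 43.5 CPM and Axl, a receptor tyrosine kinase, from 9.04 to 14.9 CPM. The chemokine genes Ccl3 and Ccl4 went from 54.4 to 25.3 and from 107 to 50.03 CPM. Of 10 immediate early genes, which respond to handling as well as to stimuli, 2 were called lower (Fos and Fosb) and the median log2 ratio was -0.43. Their part in the values of the identity genes was not tested.

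The microglia-like cells fell into 6 clusters, and the level of the identity genes varied among these. Between the lowest and the highest cluster of the control the genes differed by 1.23-fold (Bin1) to 2.50-fold (Gpr84). Cluster 3, the largest with 997 control and 1060 mutant cells, was led by Slc2a5 and P2ry13. Cluster 9 was led by Cst3 and C1qb, cluster 1 by Klk8 and Cd34, cluster 0 by long genes such as Csmd3, cluster 10 by Ccl4, Ccl3 and Clec7a, and cluster 14 by the interferon-induced genes Ifit2 and Ifit3. Some of the leading genes are identity genes, although these did not enter the clustering.

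Cluster 10, with 104 and 95 cells, held the lowest level of 21 of the 30 genes in the control and of 20 in the mutant. How many of all measured genes were lowest in cluster 10 was not counted, so these counts do not set the identity genes apart. Tmem119 stood at 650 and 679 CPM there, against 1447 and 1388 CPM in cluster 9, and Selplg at 1260 and 1258 CPM against 2495 and 2342 CPM. The same cells summed to 11563 and 9467 CPM over the activated microglia list, against 1732 and 1596 CPM in cluster 3. Cluster 1 stood at 3508 and 3553 CPM. Ccl3, Ccl4, Clec7a, Lpl and Cst7 of that list lead cluster 10 and were not kept out of the clustering. The high sum is thus in part built into the cluster. Among the identity genes Gpr84 went the other way, with 198 and 246 CPM in cluster 10 against 111 and 117 CPM in cluster 3. Bhlhe41 and Irf8 were also highest in cluster 10 in the control, at 194 and 486 CPM, but in cluster 14 in the mutant. Irf8 and Bin1 were among the flattest genes, with 1.27- and 1.29-fold, and 1.23- and 1.21-fold, between their lowest and highest cluster.

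Cluster 0 had the highest share of UMIs from genes longer than 100 kb, at medians of 24.3% and 24.8%, against 15.4% and 15.5% in cluster 9. Nav3 was highest there, at 2311 and 1980 CPM, and so was Sall1, at 520 and 469 CPM. Cst3 was lowest in cluster 0, at 43079 and 41347 CPM, and highest in cluster 9, at 67505 and 67133 CPM. The whole set summed to 91894 and 90501 CPM in cluster 9 and to 63690 and 62841 CPM in cluster 10.

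**Figure D4:**
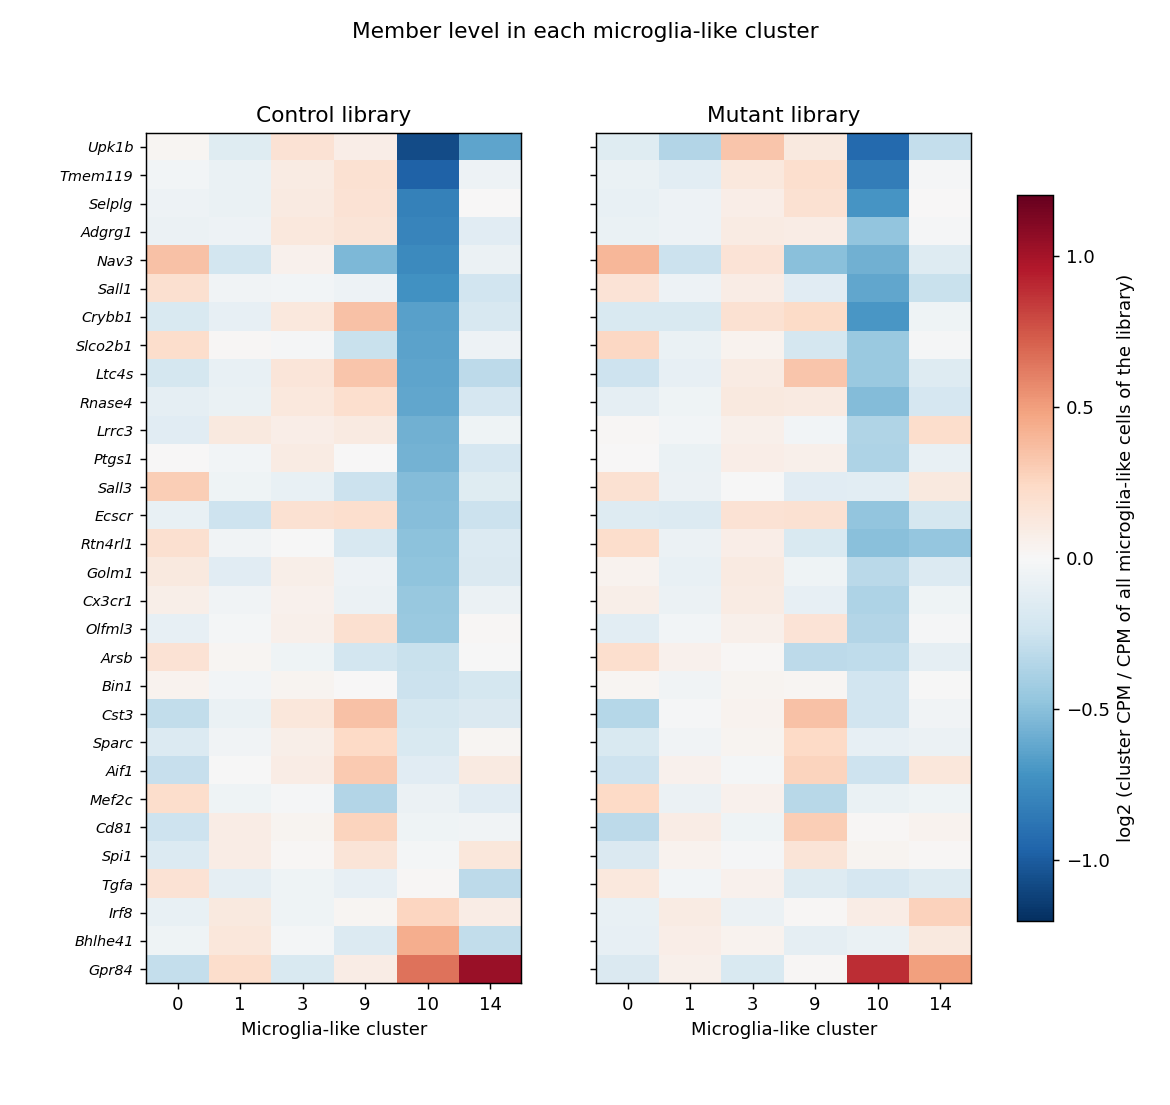
Level of each identity gene in each of the 6 microglia-like clusters (x axis), as the log2 ratio of the cluster's CPM to the CPM of all microglia-like cells of the same library (colour), for the control on the left and the mutant on the right. Cluster 10 is blue for most genes, among them Upk1b at 36.6 and 26.1 CPM and Tmem119 at 650 and 679 CPM. Gpr84 is red there and in cluster 14.

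Within clusters 14 of the 30 genes had a genotype ratio on the same side of 1 throughout, and 16 had ratios on both sides. Upk1b was below 1 in each of the 6 clusters, from 0.561 in cluster 1 to 0.823 in cluster 14, and was called lower in clusters 0, 1 and 9, where 2.83%, 2.54% and 2.75% of measured genes were called lower. In clusters 10 and 14 it rested on 27 to 52 UMIs per library, and their intervals included 1. Crybb1 was also below 1 in all 6, from 0.660 to 0.788, and was called lower in cluster 9. Sall3 was above 1 in all 6, from 1.17 to 1.67, and was called higher in clusters 10 and 14, where 2.39% and 2.45% of genes were called higher. In cluster 14, with 54 and 58 cells, Lrrc3 and Bhlhe41 were called higher as well, at 1.53 and 1.60. Bhlhe41 went the other way in cluster 10, at 0.847 (0.705 to 1.02), against 1.17 to 1.26 in clusters 0, 1, 3 and 9. Adgrg1, at 0.950 over all clusters, was at 1.18 (1.005 to 1.395) in cluster 10, and Gpr84, at 1.05 over all clusters, at 0.722 (0.566 to 0.918) in cluster 14. Sall3, Lrrc3 and Bhlhe41 thus passed 1.5-fold in small clusters but not in microglia-like cells as a whole.

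BAM-like cells are defined by Mrc1, the Cre driver, among other markers. There the identity genes lay lower and were counted less precisely. Of 27 measured genes 2 were called higher in the mutant and 5 lower, where 3.4% of 8112 measured genes were called higher and 3.33% lower. The median log2 ratio of the 27 was -0.20, beside 0.01 over all genes. Upk1b, Lrrc3 and Sall3 had under 50 UMIs in both libraries together.

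Cd81 (ENSMUSG00000037706, chromosome 7, 143052739 to 143067934, plus strand, GRCm38) stood at 354 CPM in control and 622 CPM in mutant BAM-like cells, a ratio of 1.76 (1.60 to 1.93). It was found at 3000 UMIs in 59.2% (53.0 to 65.1) of control and 75.9% (66.7 to 83.6) of mutant cells, and before thinning in 72.9% and 85.5%. No single cell gave more than 5.24% of its UMIs. Choroid plexus epithelium-like cells, in which Cd81 stood at 749 and 758 CPM, showed shares of 89.2% and 85.1%. The 6 markers of that epithelium summed to 1856 and 2174 CPM in BAM-like cells, and their part in the ratio was not tested. With clusters alone and no gate the ratio was 1.34, and the call was lost. Rtn4rl1, the other gene called higher, rested on 38 and 24 UMIs, and without the gate its ratio was 0.791.

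Crybb1 showed the lowest ratio, from 70.4 to 22.6 CPM (0.321, 0.204 to 0.487), and it was called lower under all 18 alternative settings, with ratios from 0.143 to 0.415. At 3000 UMIs 15.7% (11.6 to 20.7) of control and 2.78% (0.577 to 7.90) of mutant BAM-like cells held a Crybb1 UMI, and before thinning 31.6% and 15.3%. In choroid plexus epithelium-like cells the thinned shares were 2.78% and 0.943%. Crybb1 was thus low in mutant microglia-like and BAM-like cells alike, by different amounts whose difference was not tested.

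The other genes called lower were Tgfa, from 22.1 to 9.06 CPM (0.411, 72 and 10 UMIs), Nav3, from 66.5 to 28.1 CPM (0.422), Golm1, from 49.9 to 25.4 CPM (0.508, 163 and 28 UMIs), and Sparc, from 112 to 72.5 CPM (0.645). A single cell gave 32.3% of the mutant Nav3 UMIs, and with the gate alone, without clusters, the Nav3 ratio turned to 1.43. Thinned to 3000 UMIs per cell, only Crybb1 and Nav3 of the 5 genes were called, with too few UMIs left for Tgfa and Golm1. The Sparc ratio was then 0.869. The 5 microglial markers summed to 2962 and 2436 CPM in BAM-like cells of control and mutant. Most of this was Fcrls, at 1805 and 1367 CPM, or 79.3% and 69.7% of its microglial level. The other markers stood at 6.75% (Siglech) to 23.2% (P2ry13) in the control and at 9.01% to 26.0% in the mutant. The part of these markers in the ratios was not tested. With BAM-like cells held under 0.5% of UMIs in the markers of the microglial gate, an alternative chosen after the data were seen, 1 gene was called higher (Cd81) and 3 lower (Tgfa, Crybb1 and Golm1).

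The other 20 measured genes were not called in BAM-like cells. Of these, 17 had ratios between 0.779 (Ltc4s) and 1.14 (Bin1). The lowest were Adgrg1, from 19.3 to 10.9 CPM (0.563, 0.276 to 1.05), the identity factor Sall1, from 25.4 to 15.4 CPM (0.606, 0.337 to 1.03), and Gpr84, from 14.7 to 9.06 CPM (0.616, 0.278 to 1.23), which rested on 10 to 17 UMIs in the mutant. Mef2c was at 1539 and 1658 CPM (1.08), Spi1 at 355 and 388 CPM (1.09), Aif1 at 553 and 547 CPM (0.990), Tmem119 at 66.2 and 66.1 CPM (0.999) and Cx3cr1 at 282 and 224 CPM (0.792). In the same cells 7 of 10 immediate early genes were called lower and 4 of 10 interferon-induced genes higher, with median log2 ratios of -0.66 and 0.51. Their part in the values of the identity genes was not tested. In monocyte- or dendritic-like cells 10 of the 30 genes could be measured, and 3 (Cd81, Arsb and Aif1) were called lower in the mutant, where 8.91% of 2459 genes were called lower and 10.7% higher. With 22 and 44 cells this describes few cells, and Cd81 and Arsb turned direction in an alternative setting. A single control cell gave 36.25% of the Cd81, 16.3% of the Arsb and 27.0% of the Aif1 UMIs. In the mutant these shares were 23.3%, 19.0% and 27.0%. The 5 microglial markers summed to 576 and 219 CPM in this class, and their part in the ratios was not tested.

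Identity genes were also counted in classes that are not macrophages. Microglial RNA can reach such barcodes as free RNA or with a second cell, and keeps its genes in the ratio of the source, so the 5 microglial markers served as a ruler. Summed over a class they stood at 12.1% and 22.9% of their microglial CPM in endothelial-like cells of control and mutant, 5.09% and 7.22% in fibroblast-like, 4.07% and 6.55% in astrocyte-like, 4.38% and 2.74% in ependymal-like, 3.17% and 5.999% in oligodendrocyte-like cells, and in the choroid plexus epithelium at 1.23% and 1.08%. Few barcodes gave most of this. In endothelial-like cells, the shallowest of these classes with medians of 3892 and 3403 UMIs, the top 13 of 127 control barcodes held 76.0% of the marker UMIs and the top 19 of 184 mutant barcodes 88.2%. The median endothelial-like barcode stood at 3.82% and 3.85% of the microglial level, alike in both libraries. At 3000 UMIs 4 of 80 control and 13 of 102 mutant endothelial-like barcodes showed 18 or more of the 30 genes, the 5th percentile of microglia-like cells. In the other classes the top 10% of barcodes held from 42.5% to 84.6% of the marker UMIs. Genes of the set within the range of these markers cannot be told apart from microglial RNA carried by these barcodes.

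In none of the 6 classes, in either library, were 13 of the 30 genes counted above 3 times the highest marker of the ruler. They were Tmem119, Cx3cr1, Selplg, Crybb1, Gpr84, Upk1b, Lrrc3, Slco2b1, Golm1, Ptgs1, Irf8, Spi1 and Aif1. A gene with few UMIs in a class was not counted as above, whatever its level. For sparse genes in small classes the count therefore cannot tell a level within the ruler from too few UMIs. The rule was not applied to genes outside the set, so the 13 of 30 cannot be set against a share of all genes. The remaining genes stood above 3 times the highest marker in at least 1 class. Cst3, with most of the UMIs of the set, did so in choroid plexus epithelium-like cells of both libraries and in control astrocyte-like cells. Nav3 and Bhlhe41 did so in both libraries in astrocyte-like and choroid plexus epithelium-like cells. So did Arsb and Rtn4rl1 in the epithelium, Rnase4 in ependymal-like and Olfml3 in fibroblast-like cells. Ecscr and Mef2c were counted as above only in control endothelial-like cells. Cd81 was over 3 times the highest marker in both libraries in 5 of these classes, endothelial-like cells being the exception, and in astrocyte-like cells it reached 1696 and 1739 CPM, or 87.1% and 86.0% of its microglial level. Bin1, known from oligodendrocytes too, stood at 852 and 954 CPM in oligodendrocyte-like cells, or 100.5% and 114% of the microglial level.

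The matrix gene Sparc stood at 1806 and 7650 CPM in fibroblast-like cells, where it is a known product, and at 1757 and 1897 CPM in endothelial-like cells. Adgrg1 stood at 221 and 267 CPM and Sall3 at 88.9 and 76.2 CPM in astrocyte-like cells, above the ruler in both libraries. Ltc4s reached 275 and 227 CPM in choroid plexus epithelium-like cells, or 44.3% and 34.3% of its microglial level. Tgfa was above the ruler in both libraries in endothelial-like (78.4 and 104 CPM), oligodendrocyte-like (122 and 87.7 CPM), fibroblast-like and choroid plexus epithelium-like cells. Sall1 was counted above the ruler in both libraries only in oligodendrocyte-like cells, at 65.6 and 92.9 CPM on 77 and 36 UMIs.

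**Figure D5:**
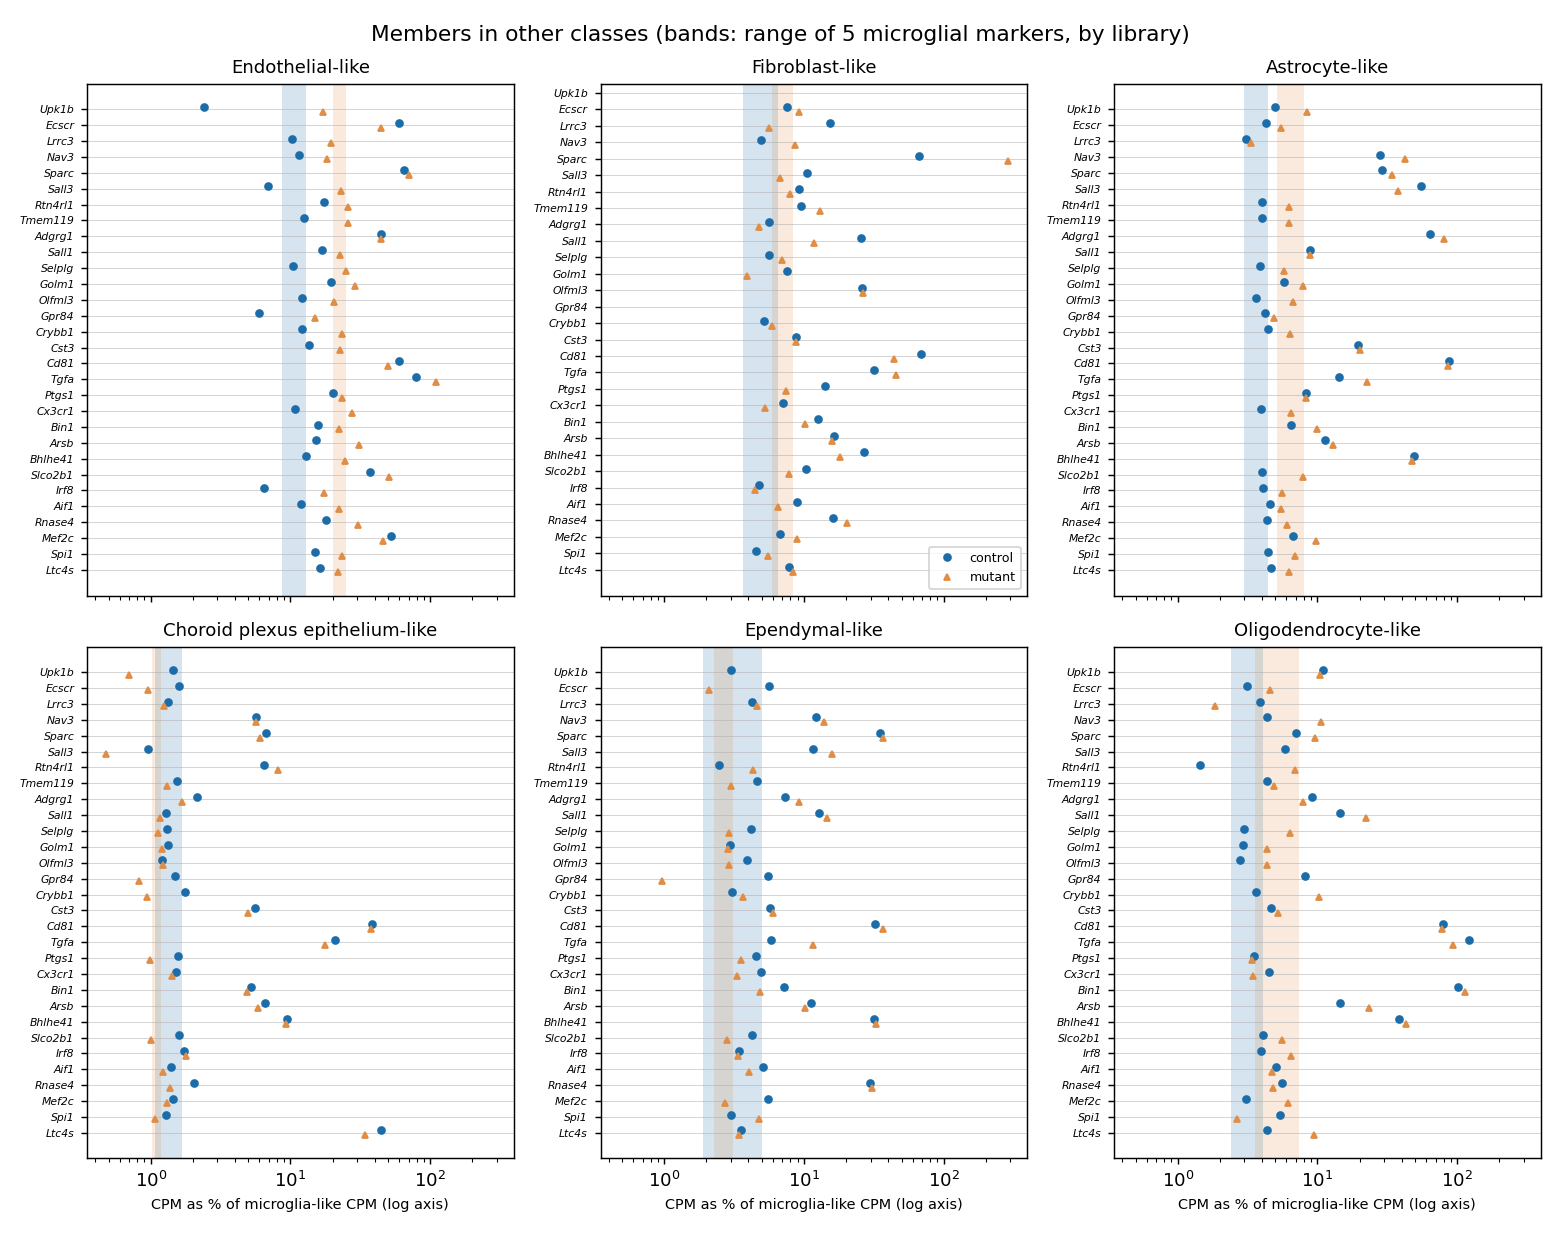
Level of each identity gene in 6 other classes as percent of its CPM in microglia-like cells of the same library (x axis, log scale), control as circles and mutant as triangles; shaded bands span the 5 microglial markers, blue for control and orange for mutant. Most genes lie in or near the bands, while Cd81, Sparc, Tgfa and Bhlhe41 lie to the right of them in several classes.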

How the data were processed

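Single-cell RNA was measured in 2 libraries, 1 per genotype. The values deposited are unnormalised counts of UMIs for each gene in each barcode, written by Cell Ranger 7.1.0 per the file headers. The submitters' processing notes name the builds GRCm38.p6 and mm10. How introns were counted, how cells were called and whether free RNA was subtracted is not given in the sources used here.

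Kept barcodes had 500 or more genes and no more than 10% of UMIs from mitochondrial genes. Scrublet in scanpy 1.11.5, run on all barcodes of a library with its automatic threshold, marked 2.62% of control and 2.52% of mutant barcodes, which were removed. That left 5609 control and 6123 mutant barcodes. After scaling to 10000 per cell and a log transform, 30 principal components were taken from 2000 variable genes, without the 30 identity genes, sex-linked or mitochondrial genes. On 15 nearest neighbours, Leiden at resolution 1 found 25 clusters. Names were given when at least 3 fixed markers of a class were found. A cluster stayed unnamed when its leading genes belonged to another class, when it carried markers of 2 classes, or when it was shallow with no own marker among its leading 10 genes. No deposited annotation was used, so the classes can differ from those of the study.

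Within named clusters a gate kept microglia-like barcodes with at least 4 of 6 microglial markers at 0.5% or more of UMIs and BAM markers at no more than 0.05%. BAM-like barcodes needed BAM markers at 0.1% or more and microglial markers under 0.8%, and monocyte- or dendritic-like barcodes microglial markers under 0.5% and BAM markers under 0.1%. These thresholds were set after the data were seen. Of the 6 markers, 1 is not reported here, and values given for the other 5 leave it out. Between 0.25% and 1% of UMIs in microglial markers lay 58 control and 101 mutant microglia-like barcodes.

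For CPM the UMIs of a class were summed in each library and scaled to its total. Ratios carry the exact conditional Poisson interval and shares the exact Clopper-Pearson interval, both at 95%. A gene was called at a ratio of at least 1.5 or at most 0.667 with an interval that excludes 1, given at least 50 UMIs over both sides. Every one of the 30 genes is accounted for. Values in both libraries are given for genes past this rule and for the 5 highest and 5 lowest ratios between genotypes. The calling rule was tested on simulated counts with 2-fold changes in genes of at least 200 UMIs. The simulation held counting error only, so it does not cover smaller changes, sparser genes, or spread between cells or libraries. The members, lists and rules were chosen with earlier results of these data known. Gene locations come from GENCODE for GRCm38, matched by identifier. Malat1 was not analysed here.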

Additional observations from a re-analysis of the deposited data

Results flagged for a closer look

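The identity genes were also counted in barcodes that the comparisons left out, and stood there well above 0. Barcodes over the limit of 10% mitochondrial UMIs that passed the microglial marker gate numbered 280 in the control and 183 in the mutant, and in them the 30 genes summed to 44512 and 38822 CPM. A shallow unnamed cluster with microglial markers, of 2528 and 2619 median UMIs, held 573 control and 675 mutant barcodes that passed the gate, and in them the set summed to 48815 and 38077 CPM. In the microglia-like cells of the comparisons it summed to 76319 and 74885 CPM. The mutant value was the lower of the pair in each of these kinds of barcodes. Mitochondrial share and depth differ from the microglia-like cells by construction. The shallow cluster, before the gate, also had a median of 37.4% of UMIs in genes longer than 100 kb. In the microglia-like cells of the comparisons this share was 19.6% and 19.9%. The part of these differences in the lower sums was not tested.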

How the results depend on the processing

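No paired analysis was possible because there is 1 library per genotype. Alternatives covered scaling, weight per cell, gate, doublets, barcode filters, clustering, thinning, minimum counts and fold, and 3 (long-gene share, Cst3 left out, stricter BAM gate) were chosen after the data were seen. Counts of genes higher or lower in microglia-like than in BAM-like or monocyte- or dendritic-like cells stayed within 1.5 times of their value in all that were run. The size of the ratios moved more. Without the gate the median log2 ratio of the set to BAM-like cells was 1.98 (control) and 2.63 (mutant), against 2.54 and 3.37. To monocyte- or dendritic-like cells it was 2.13 and 1.87, against 3.52 and 4.42. The Sall1 ratio to BAM-like cells ran from 5.83 to 30.5 in the control and from 9.20 to 45.0 in the mutant. In microglia-like cells the genotype counts changed only with the fold: 2 genes higher and 2 lower at a looser fold rule, and 0 lower at 2-fold. In BAM-like cells the 2 genes higher became 0 without the gate and at 2-fold, and 1 with the gate alone, doublets kept, at most 5% mitochondrial UMIs, thinning to 3000 UMIs, BAM-like cells under 0.5% microglial markers, or a minimum of 200 UMIs. The 5 genes lower became 2 after thinning, and 3 with that stricter gate, the minimum of 200 UMIs or 2-fold. Among genes called in the genotype comparisons, ratios that turned direction were Rtn4rl1 (0.791) in BAM-like and Arsb (1.10) in monocyte- or dendritic-like cells without the gate, and Nav3 (1.43) in BAM-like and Cd81 (2.17) in monocyte- or dendritic-like cells with the gate alone. Ratios of uncalled genes crossed 1 in at least 1 setting for 5 of 29 genes in microglia-like, 9 of 20 in BAM-like and 6 of 7 in monocyte- or dendritic-like cells. The cause was not tested. Clustering each library alone gave no monocyte- or dendritic-like class in a library, so that contrast has no value there, and the planned filter on Malat1 was not run. Depth limits the monocyte- or dendritic-like cells most: 10 of the 30 genes reached 50 UMIs over both libraries there, against 27 in BAM-like cells.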
